A study of Rattus norvegicus with 27 samples.

Results

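The genes described here encode the enzymes that make cholesterol, fatty acids and the galactolipids and sphingolipids of myelin, with 4 regulators of sterol synthesis. They were taken from a list of 37 gene symbols. Each was read from the brightest probe set that names a single gene, and 35 of the 37 were found among 14217 genes measured, since Hmgcs1 and Sptlc2 had no such probe set in the annotation used here. The 35 fall into 17 sterol enzymes, 4 regulators, 9 fatty acid enzymes and 5 galactolipid and sphingolipid enzymes. Messenger RNA was measured on 27 Affymetrix rat arrays of oligodendrocyte precursor cells (OPCs) from 3 rat donors, in 9 groups with 1 array for each donor. The PDGF group was taken at 0 h, under platelet-derived growth factor. In the other 8 groups PDGF was withdrawn and the cells received the thyroid hormone T3, or T3 with interferon-gamma (T3+IFNγ), for 8, 24, 48 or 96 h. No gene was altered in any group. The cells were isolated from the cerebral cortex of postnatal rat pups on beads carrying the A2B5 antibody and expanded in culture, so they model dividing precursors rather than tissue. PDGF arrays exist at 0 h only, so a difference between T3 and PDGF holds the withdrawal of PDGF, T3 and time in culture, which cannot be told apart. The comparison of T3+IFNγ with T3 was made at matched times.

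Myelin is a lipid-rich membrane, and oligodendrocytes make most of its cholesterol themselves. Cholesterol is built from acetyl-CoA through mevalonate, farnesyl diphosphate and squalene to lanosterol, which is then trimmed to cholesterol. The transcription factors SREBP-1 and SREBP-2 (Srebf1, Srebf2) switch on these enzymes and those of fatty acid synthesis when sterols are scarce, and the Insig proteins hold the factors back in the endoplasmic reticulum. Galactosylceramide and sulfatide, the typical myelin galactolipids, are built from ceramide with very long fatty acyl chains and a galactose added by Ugt8. They can also carry a hydroxyl group added by Fa2h.

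Values are log2 signals and differences are on the same scale, where 1 unit is a doubling. Standard errors (SE) and adjusted p-values come from limma fitted to all 14217 genes, with Benjamini-Hochberg adjustment within each comparison, and "called" means that this adjusted p was below 0.05. Each value rests on 3 arrays a group, and where 3 signals are given they are those of donors 1, 2 and 3 in that order. Oligodendrocyte markers were measured for 9 genes. All 9 were called higher in T3 than in PDGF at 96 h, and 0, 3, 6 and 5 of them were called lower in T3+IFNγ than in T3 at 8, 24, 48 and 96 h. Their summed linear signal at 48 h ran from 43900 to 54500 in T3 and from 33100 to 40000 in T3+IFNγ. Of 14 microglia and macrophage markers, 1, 5, 6 and 7 were called higher in T3+IFNγ than in T3 at the same times, and their sum ran from 811 to 1980 in T3 and from 2800 to 8160 in T3+IFNγ at 24 h, and from 454 to 596 and from 1550 to 6030 at 96 h. Among these 14, P2ry12 had a mean log2 signal of 3.93 in T3 and 6.97 in T3+IFNγ at 96 h, and C1qb one of 4.97 and 9.13. Cx3cr1 (5.79 and 5.83) and Trem2 (5.85 and 5.8) hardly differed at that time, and Tmem119 lay under the median signal on every array. Of 9 astrocyte markers 0 to 1 were called higher and 0 to 2 lower with IFNγ at these times. Of 6 OPC markers 0, 1, 1 and 1 were called higher with IFNγ, and of 8 neuron markers 1, 1, 1 and 2, with 0 of either lower. In T3 against PDGF, 6 and 11 of the 14 microglia and macrophage markers were called lower at 48 and 96 h, and at 96 h 4 of 9 astrocyte markers were higher and 1 lower, 5 of 8 neuron markers were lower, and 3 of 6 OPC markers were lower and 1 higher. The shares of all genes called higher with IFNγ were 3.69%, 5.96%, 7.58% and 7.91% at 8, 24, 48 and 96 h. Those called lower were 1.58%, 6.35%, 8.53% and 5.63%. In T3 against PDGF, 25.7% and 29.5% of all genes were called lower at 48 and 96 h, and 23.4% higher at 96 h. Marker counts near these shares say little about the markers. The part of other cells in the differences below was not tested. In cultures measured in bulk, fewer cells of a type and less RNA per cell cannot be told apart. The log2 difference between 3′ and 5′ probe sets of Gapdh, a sign of RNA quality, was 0.372 and 0.108 in the donor 2 arrays of T3+IFNγ at 8 h and 24 h and 0.066 in the PDGF array of donor 2. On the other 24 arrays it ran from -0.261 to -0.064.

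After PDGF withdrawal in T3, most lipid synthesis genes rose, and 28 of the 35 had their highest mean at 48 h. The numbers called higher than in PDGF were 4, 26, 30 and 18 of the 35 at 8, 24, 48 and 96 h. Over all genes tested the share called higher was 7.31%, 17.1%, 17.5% and 23.4%. limma called 0 of the 35 lower at any of these times. At an unadjusted p under 0.05 only Ugcg was lower, at 8 h, and with donors as blocks Ugcg at 8 h (adjusted p = 0.0441) and Acaca at 96 h (adjusted p = 0.0258) were called lower. The 8 h count depended on the donors: it was 9 with donors as blocks, against 10.1% of all genes, 15 without donor 1 and 1 without donor 2 or donor 3. In donor 1 the mean difference over the 17 sterol enzymes at 8 h was -0.15, whereas it was 0.50 in donor 2 and 0.51 in donor 3. By 48 h the 3 donors gave 1.24, 1.12 and 1.22.

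**Figure D1:**
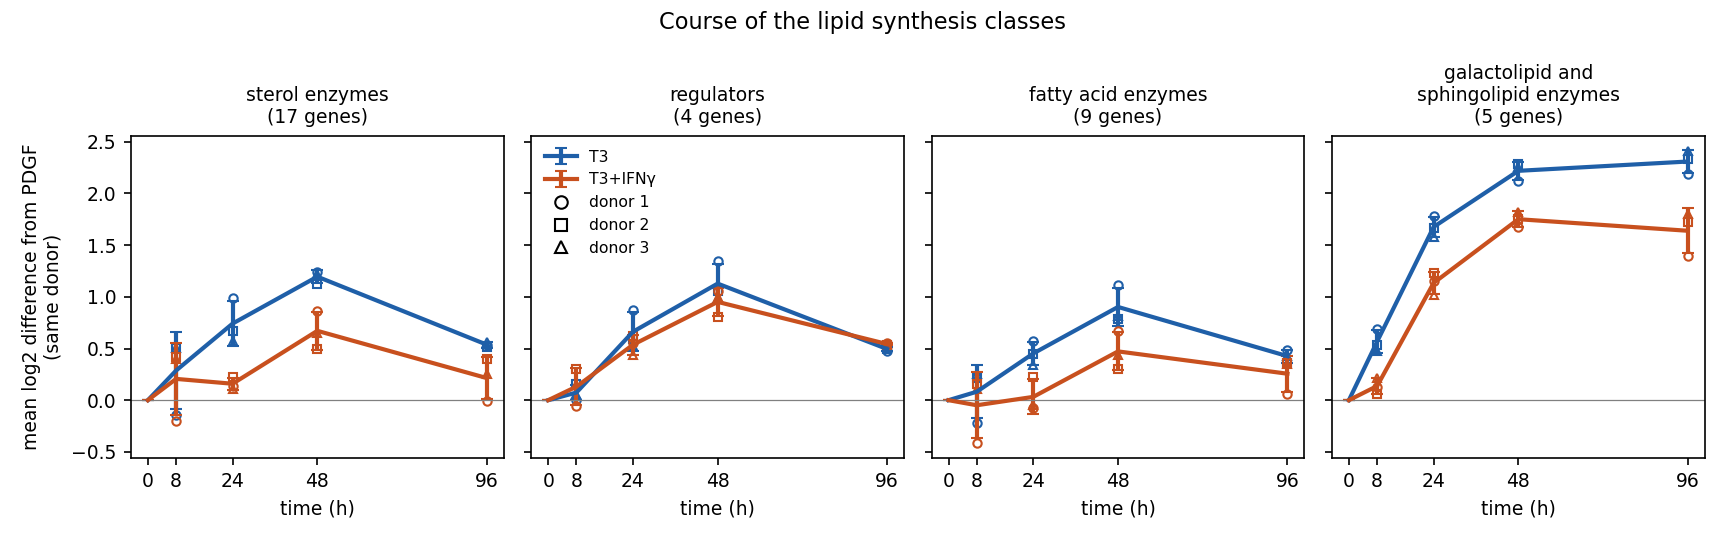
Mean log2 difference from the PDGF array of the same donor (vertical axis) against time in hours, for T3 (blue) and T3+IFNγ (orange), with 1 panel for each class of genes. Lines join the means of 3 donors, bars are SDs over donors and open symbols are single donors. Sterol and fatty acid enzymes peaked at 48 h and came down by 96 h, whereas the galactolipid and sphingolipid mean stayed at 2.22 and 2.31 in T3.

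Nearly all sterol enzymes rose. In T3, 15 of 17 were called higher than in PDGF at 24 h and 16 at 48 h, against 17.1% and 17.5% of all genes. The median difference was 0.80 and 1.23, whereas the median over all genes was -0.0024 and -0.0037. Tm7sf2, a sterol reductase of the late pathway, stood out. Its signal was 8.99, 8.96 and 9.08 in PDGF, 10.49, 9.72 and 9.73 in T3 at 24 h and 11.72, 11.28 and 11.28 at 48 h. All 3 arrays at 48 h lay above every earlier array, and the difference from PDGF was 2.41 ± 0.21 (SE), with a limma adjusted p of 4.6e-09. At 96 h it was back to 10.08, 9.98 and 9.96, still 0.99 ± 0.21 above PDGF (adjusted p = 0.000348).

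The other sterol enzymes rose less, those given here by 0.59 to 1.47 at 48 h. Among the enzymes of the mevalonate stage, Mvk (mevalonate kinase) rose by 1.38 at 48 h, Pmvk (phosphomevalonate kinase) by 1.23, Mvd (mevalonate diphosphate decarboxylase) by 1.30 and Idi1 (isopentenyl diphosphate isomerase) by 1.11. Mvk was also the only sterol enzyme called at 8 h, with a difference of 0.62 ± 0.15 (adjusted p = 0.0102). At the squalene stage, Fdft1 (squalene synthase) rose by 1.17, Sqle (squalene epoxidase) by 0.78 and Lss (lanosterol synthase) by 1.34. Acat2, the cytosolic thiolase at the head of the pathway, showed the smallest called rise, 0.59 ± 0.15. On the way from lanosterol to cholesterol, Cyp51 (lanosterol demethylase) rose by 1.47, Sc5d (sterol desaturase) by 1.40 and Dhcr7, which makes cholesterol itself in one branch, by 1.15. Sc5d held much of its rise, with a difference from PDGF of 1.04 ± 0.19 at 96 h (adjusted p = 8.5e-05), the largest of the 17 at that time.

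Ebp, the sterol isomerase of the late pathway, followed another course. Its signal was 8.23, 7.91 and 8.01 in PDGF, 8.12, 7.53 and 7.66 in T3 at 24 h, 8.97, 8.38 and 8.47 at 48 h, then 9.12, 8.70 and 9.02 at 96 h. It was the only sterol enzyme whose mean in T3 was highest at 96 h, where it was 0.90 ± 0.24 above PDGF (adjusted p = 0.00284). At 24 h its mean was 0.28 below PDGF, with all 3 donors lower, and the difference was not called (adjusted p = 0.431).

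Between 48 and 96 h in T3, 21 of the 35 genes were called lower and 2 higher, against 14.7% and 11.8% of all genes. Of the 17 sterol enzymes 13 were called lower and 16 had a lower mean, with a median over the 17 of -0.71. The largest falls were those of Tm7sf2 (-1.42), Mvd (-1.02), Fdft1 and Hsd17b7 (both -0.93). The fall in the class mean was close to equal in the donors, at -0.71, -0.62 and -0.65. The number called lower was 23, 13 and 10 of the 35 without donors 1, 2 and 3. The earlier steps rose: 17 genes were called higher at 24 than at 8 h, against 10.7% of all genes, and 12 at 48 than at 24 h, against 6.63%. These counts were 10, 6 and 8 for the earlier step and 22, 4 and 5 for the later step without donors 1, 2 and 3.

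**Figure D2:**
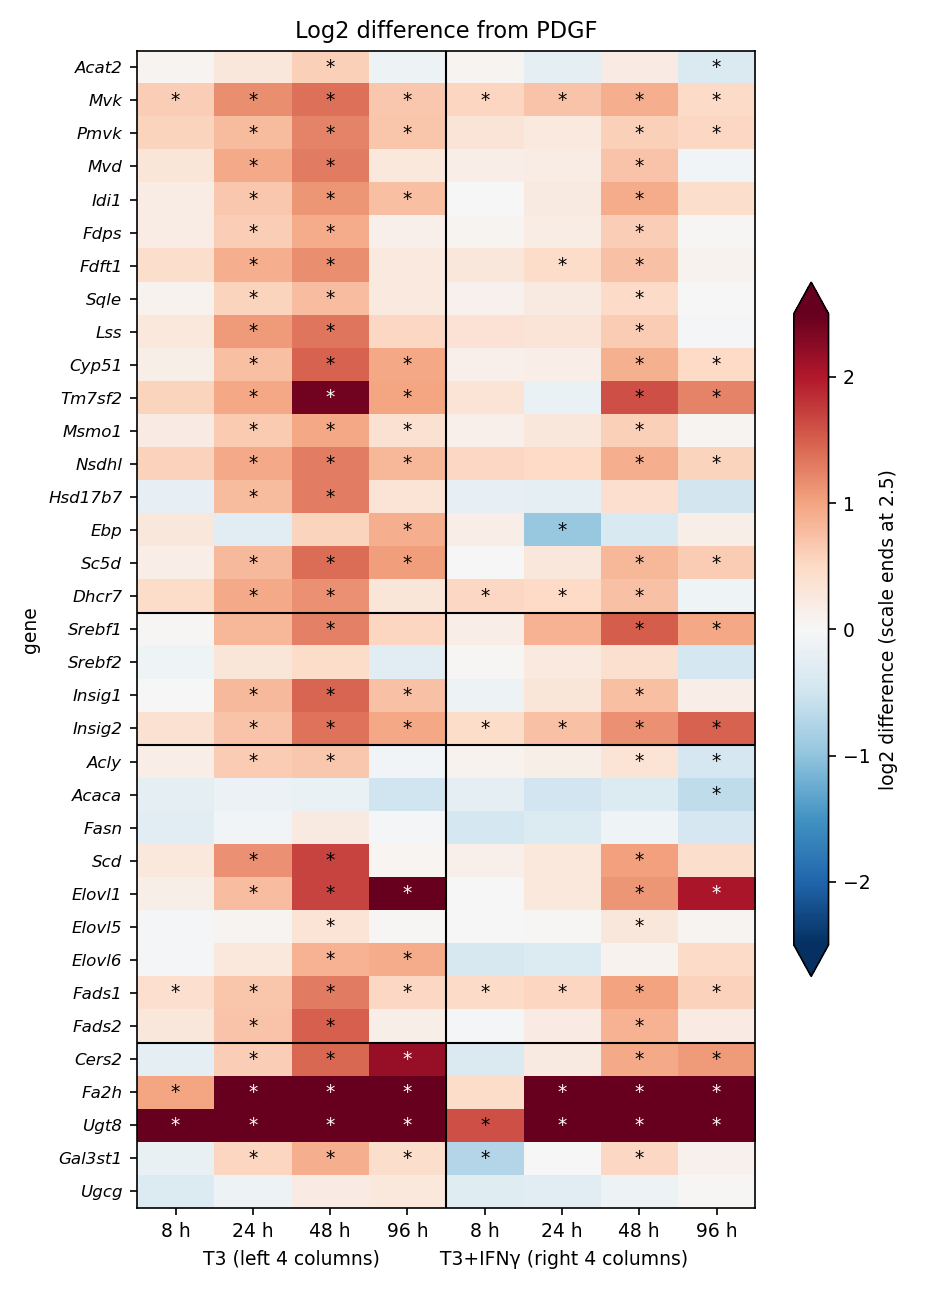
Log2 difference from PDGF (colour, scale ending at 2.5 in either direction) for the 35 genes (rows, grouped from top to bottom as sterol enzymes, regulators, fatty acid enzymes, and galactolipid and sphingolipid enzymes) in T3 and T3+IFNγ at 4 times (columns). An asterisk marks an adjusted p under 0.05. Most rows are darkest at 48 h, and those of Elovl1, Fa2h and Ugt8 run past the end of the scale, up to 5.08.

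Of the 4 regulators, 3 were called higher in T3 than in PDGF at 48 h, against 17.5% of all genes. Insig1, a sterol sensor that is itself an SREBP target, had signals of 10.91, 10.81 and 10.82 in PDGF, 12.56, 12.12 and 12.20 in T3 at 48 h and 11.62, 11.54 and 11.57 at 96 h. The groups did not overlap, and the differences from PDGF were 1.45 ± 0.20 at 48 h (adjusted p = 2.83e-06) and 0.73 ± 0.20 at 96 h (adjusted p = 0.00317). Insig2 rose by 1.35 ± 0.14 at 48 h (adjusted p = 7.72e-08) and by 0.97 ± 0.14 at 96 h. Srebf1 differed strongly between donors, with signals of 6.48, 7.31 and 7.12 in PDGF and 7.96, 8.46 and 8.27 in T3 at 48 h, a rise of 1.26 ± 0.35 (adjusted p = 0.00562). With donors as blocks Srebf1 was also called at 24 h (0.83, adjusted p = 0.000102) and at 96 h (0.54, adjusted p = 0.00343), where the fit without blocks gave 0.0743 and 0.211. Srebf2, the regulator most tied to sterol synthesis, moved least. Its difference from PDGF was 0.45 ± 0.18 at 48 h, with an adjusted p of 0.0525, or 0.00798 with donors as blocks, and it fell by 0.72 between 48 and 96 h (adjusted p = 0.00518).

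The promoters of the sterol enzymes are shown because these genes moved together. RefSeq promoter sequences on the GRCr8 assembly, reaching from 250 bases before the start of transcription to 50 bases after it, were matched for 28 of the 35 genes. The 4 below come from the sterol enzymes with 3 or more CCAAT boxes in that window, the sequence read by the factor NF-Y, and run 5′ to 3′ on the strand of the gene over the 140 bases before its start. Capitals mark each CCAAT on either strand, so that ATTGG is the same box read on the other strand.
Mvk, chr12:47819504-47819643, minus strand: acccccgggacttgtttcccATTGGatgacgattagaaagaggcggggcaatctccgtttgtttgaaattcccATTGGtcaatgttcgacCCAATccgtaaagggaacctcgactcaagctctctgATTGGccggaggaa
Nsdhl, chrX:155817220-155817359, plus strand: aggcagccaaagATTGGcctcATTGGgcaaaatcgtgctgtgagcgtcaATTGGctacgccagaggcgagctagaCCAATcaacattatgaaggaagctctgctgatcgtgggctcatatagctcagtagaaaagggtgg
Msmo1, chr16:29746973-29747112, plus strand: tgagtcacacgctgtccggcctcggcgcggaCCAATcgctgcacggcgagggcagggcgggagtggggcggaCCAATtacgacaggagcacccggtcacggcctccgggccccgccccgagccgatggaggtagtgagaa
Hsd17b7, chr13:84722755-84722894, minus strand: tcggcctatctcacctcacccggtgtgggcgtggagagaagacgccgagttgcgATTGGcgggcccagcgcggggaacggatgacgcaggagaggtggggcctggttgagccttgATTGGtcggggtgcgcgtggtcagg
Mvk and Nsdhl each hold 4 boxes in the window shown, and Msmo1 and Hsd17b7 hold 2. Over the whole window Mvk and Nsdhl hold 5, and Msmo1 and Hsd17b7 hold 3.

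Over the whole windows, CCAAT was present in 21 of the 28 promoters (75.0%) and in 11 of 14 from sterol enzymes (78.6%), whereas 37.7% of all 27457 promoters held it. The letters TCACNCCAC, a form of the sterol response element searched on both strands, were in 0 of the 28 and in 1.13% of all promoters. The E-box CACGTG was in 3 of the 28 (10.7%, against 6.65%). The letters TTCNNNGAA, a form of the gamma-activated site (GAS), were in 1 of the 28 (3.57%, against 8.68%). These counts describe letters in short windows only.

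The fatty acid enzymes split. The numbers called higher in T3 than in PDGF were 5, 7 and 3 of 9 at 24, 48 and 96 h, against 17.1%, 17.5% and 23.4% of all genes. Scd, the stearoyl-CoA desaturase that makes oleate, had signals of 9.60, 9.92 and 9.84 in PDGF, 11.93, 11.28 and 11.25 in T3 at 48 h and 10.09, 9.68 and 9.75 at 96 h. Its rise of 1.70 ± 0.36 at 48 h (adjusted p = 0.000427) was followed by a fall of 1.65 by 96 h (adjusted p = 0.00124). The polyunsaturated fatty acid desaturases ran a like course, Fads2 rising by 1.497 and Fads1 by 1.30 at 48 h and falling by 1.34 and 0.78 afterwards. Acly, which supplies cytosolic acetyl-CoA, rose by 0.64 at 24 h and 0.68 at 48 h, and fell by 0.75 between 48 and 96 h.

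Elovl1, the elongase that makes very long saturated chains, kept rising instead. It had signals of 9.35, 9.03 and 9.14 in PDGF, 11.06, 10.69 and 10.83 in T3 at 48 h and 12.07, 11.79 and 11.99 at 96 h, and these groups did not overlap. It rose by 2.77 ± 0.15 over PDGF at 96 h (adjusted p = 6.36e-13) and by 1.09 between 48 and 96 h (adjusted p = 7.71e-06). Elovl6, which elongates C16 chains, stayed at a plateau, 0.86 above PDGF at 48 h and 0.93 at 96 h, both called. The committed enzymes of chain synthesis were not called. Fasn (fatty acid synthase) gave 0.22 ± 0.25 at 48 h (adjusted p = 0.519), and a dimmer probe set of the same gene gave 0.74. Acaca (acetyl-CoA carboxylase) was the only one of the 35 with its highest mean at 0 h, and it was -0.17 at 48 h and -0.50 at 96 h.

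The galactolipid enzymes held the largest differences from PDGF of the 35. Ugt8, which makes galactosylceramide, had signals of 7.49, 6.04 and 6.66 in PDGF, 10.09, 8.98 and 8.93 in T3 at 8 h, 10.90, 10.27 and 10.52 at 24 h, then 11.85, 11.63 and 11.93 at 96 h. It was higher than in PDGF by 2.60 ± 0.35 as early as 8 h (adjusted p = 8.24e-05) and by 5.08 ± 0.35 at 96 h, a 33.7-fold rise (adjusted p = 3.74e-11). A second Ugt8 probe set, at a mean of 2.77, lay near the lowest signals on the arrays and gave differences between -0.07 and 0.12. Fa2h, the fatty acid hydroxylase, had signals of 6.01, 6.18 and 5.50 in PDGF, 7.83, 6.48 and 6.33 at 8 h, then 9.69, 9.45 and 9.11 at 24 h. Almost all of its rise was made by then, with 3.52 ± 0.27 at 24 h and 3.58 ± 0.27 at 96 h (adjusted p = 1.38e-10). Its signal in T3 was highest at 48 h in 3 of 3 donors. The difference between 48 and 96 h was -0.17 and was not called (adjusted p = 0.725).

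Cers2, the ceramide synthase for very long chains, was later than both. Its signals were 8.79, 8.80 and 8.87 in PDGF, 9.85, 9.27 and 9.19 in T3 at 24 h, 10.27, 10.25 and 10.26 at 48 h, then 10.94, 10.93 and 11.11 at 96 h. It rose by 2.17 ± 0.14 over PDGF at 96 h (adjusted p = 7.7e-12), and by 0.73 between 48 and 96 h (adjusted p = 0.000281), so that Cers2 and Elovl1 were the 2 genes called higher in that step. Gal3st1, which adds the sulfate of sulfatide, rose by 0.91 ± 0.10 at 48 h and then fell by 0.46 (adjusted p = 0.000993). Ugcg, which makes glucosylceramide rather than galactosylceramide, was not called at any time in T3 and lay between -0.34 and 0.27.

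**Figure D3:**
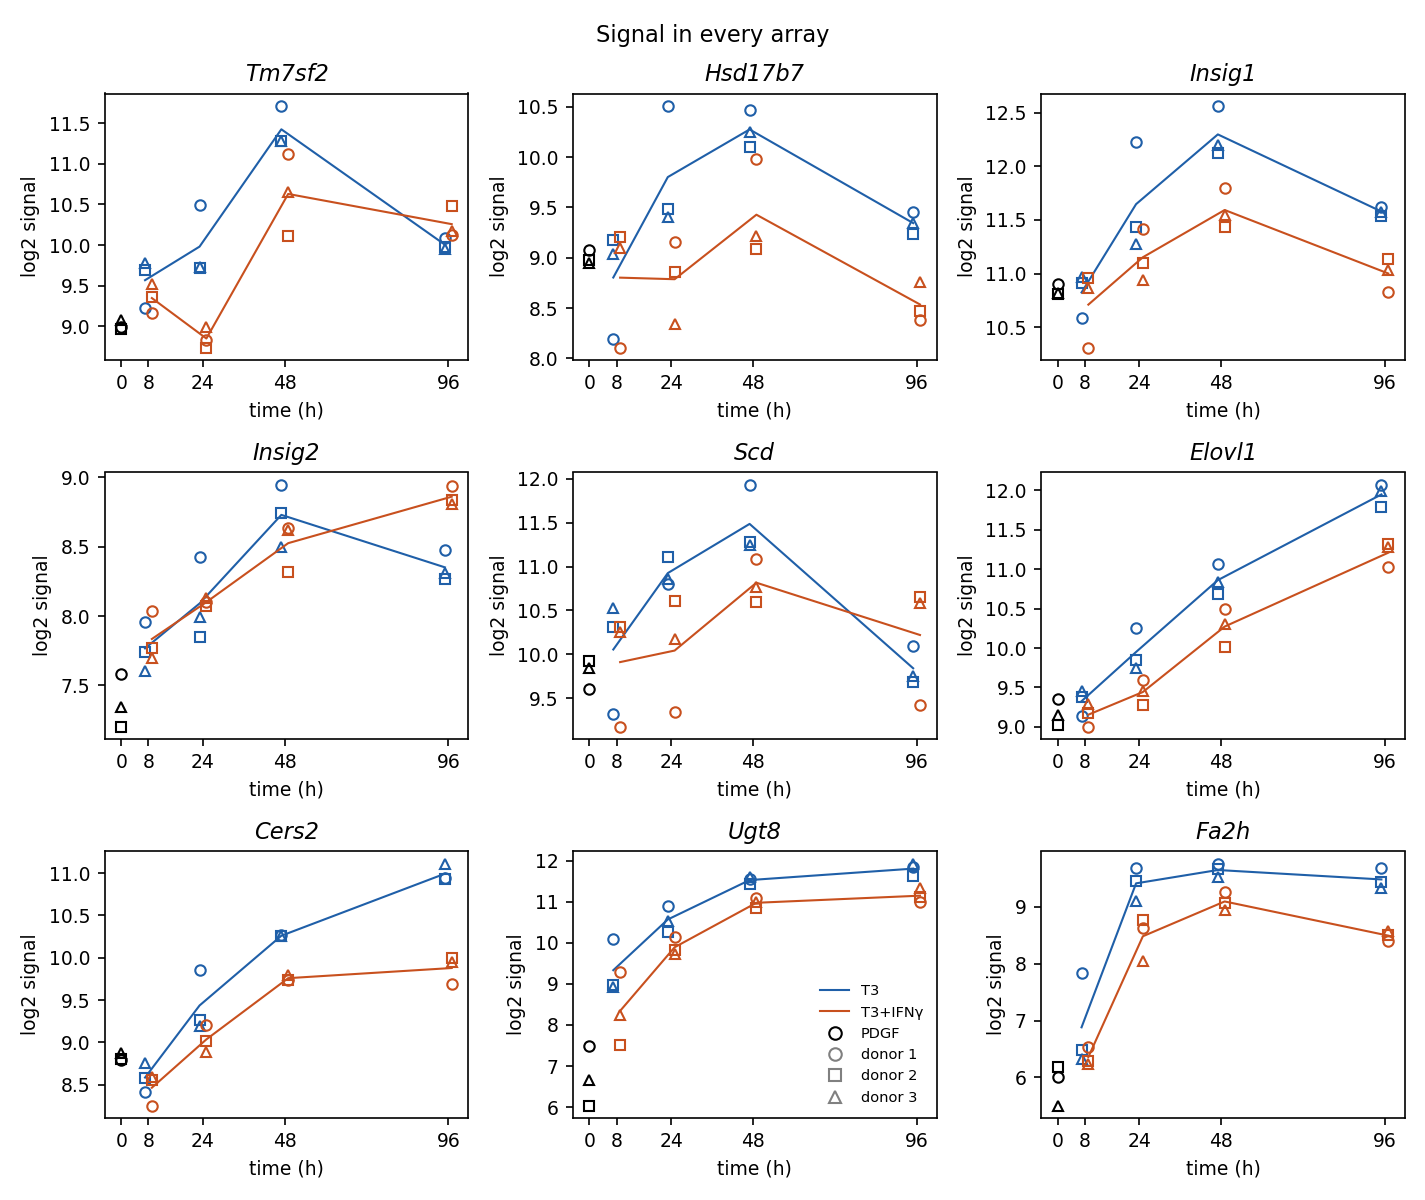
Log2 signal of 9 genes on every array against time in hours, for PDGF at 0 h (black), T3 (blue) and T3+IFNγ (orange). Symbols stand for the 3 donors and lines join group means, with the 2 treatments moved apart by 1 h either way for clarity. The means of Tm7sf2 and Scd in T3+IFNγ pass T3 at 96 h, neither called and with donor 1 of Scd below T3, whereas Cers2, Fa2h and Elovl1 stay below it.

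With IFNγ present lipid genes also rose over PDGF, and most calls came at 48 h. At 8, 24, 48 and 96 h, 5, 7, 27 and 13 of the 35 were called higher in T3+IFNγ than in PDGF, against 8.95%, 19.7%, 16.7% and 22.4% of all genes. At 8, 24 and 96 h, 1, 1 and 3 were called lower, against 9.66%, 21.0% and 27.5%. Gal3st1 was the gene called lower at 8 h, Ebp at 24 h, and Acat2, Acly and Acaca at 96 h. The count higher at 8 h was 10, 1 and 0 without donors 1, 2 and 3, and 3 without the 2 donor 2 arrays of T3+IFNγ at 8 and 24 h. At 24 h the count was 14 without donor 1, and at 96 h it was 8 without donor 2 and 7 without donor 3. T3 and T3+IFNγ were set against the same PDGF arrays. At 24 h the mean over the sterol enzymes was 0.16 ± 0.06 above PDGF in T3+IFNγ (SD over 3 donors) and 0.74 ± 0.22 in T3. At 48 h it was 0.67 ± 0.18 and 1.195 ± 0.062.

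Set against T3 at the same time, sterol, fatty acid and galactolipid enzymes were lower with IFNγ, with most calls at 24 and 48 h. At 8, 24, 48 and 96 h, 1, 10, 11 and 5 of the 35 were called lower, against 1.58%, 6.35%, 8.53% and 5.63% of all genes. limma called 0 higher at 8, 24 or 48 h, also at an unadjusted p under 0.05 and with donors as blocks, and 1 (Insig2) at 96 h, against 7.91% of all genes. With donors as blocks, 2, 19, 16 and 9 of the 35 were called in either direction at these times, against 7.51%, 17.8%, 22.3% and 18.9% of all genes. All of these were lower, except 2 of the 9 at 96 h (Insig2 and Srebf1). The median difference over the 35 was -0.11, -0.49, -0.43 and -0.31, and over all genes it lay between -0.05 and -0.02.

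These counts depended on which donor was left out. Without donor 1 they were 13 at 24 h, 22 at 48 h and 6 at 96 h, whereas without donor 2, as without donor 3, they were 2, 0 and 2. The calls that remained in both of these fits were Tm7sf2 and Gal3st1 at 24 h and Cers2 at 96 h. All other calls at 24 h, and all calls at 48 h, were lost in each of them. The median difference at 48 h moved little in these fits, to -0.51, -0.44 and -0.39. Without the 2 donor 2 arrays of T3+IFNγ at 8 and 24 h the counts were 6, 12 and 6.

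**Figure D4:**
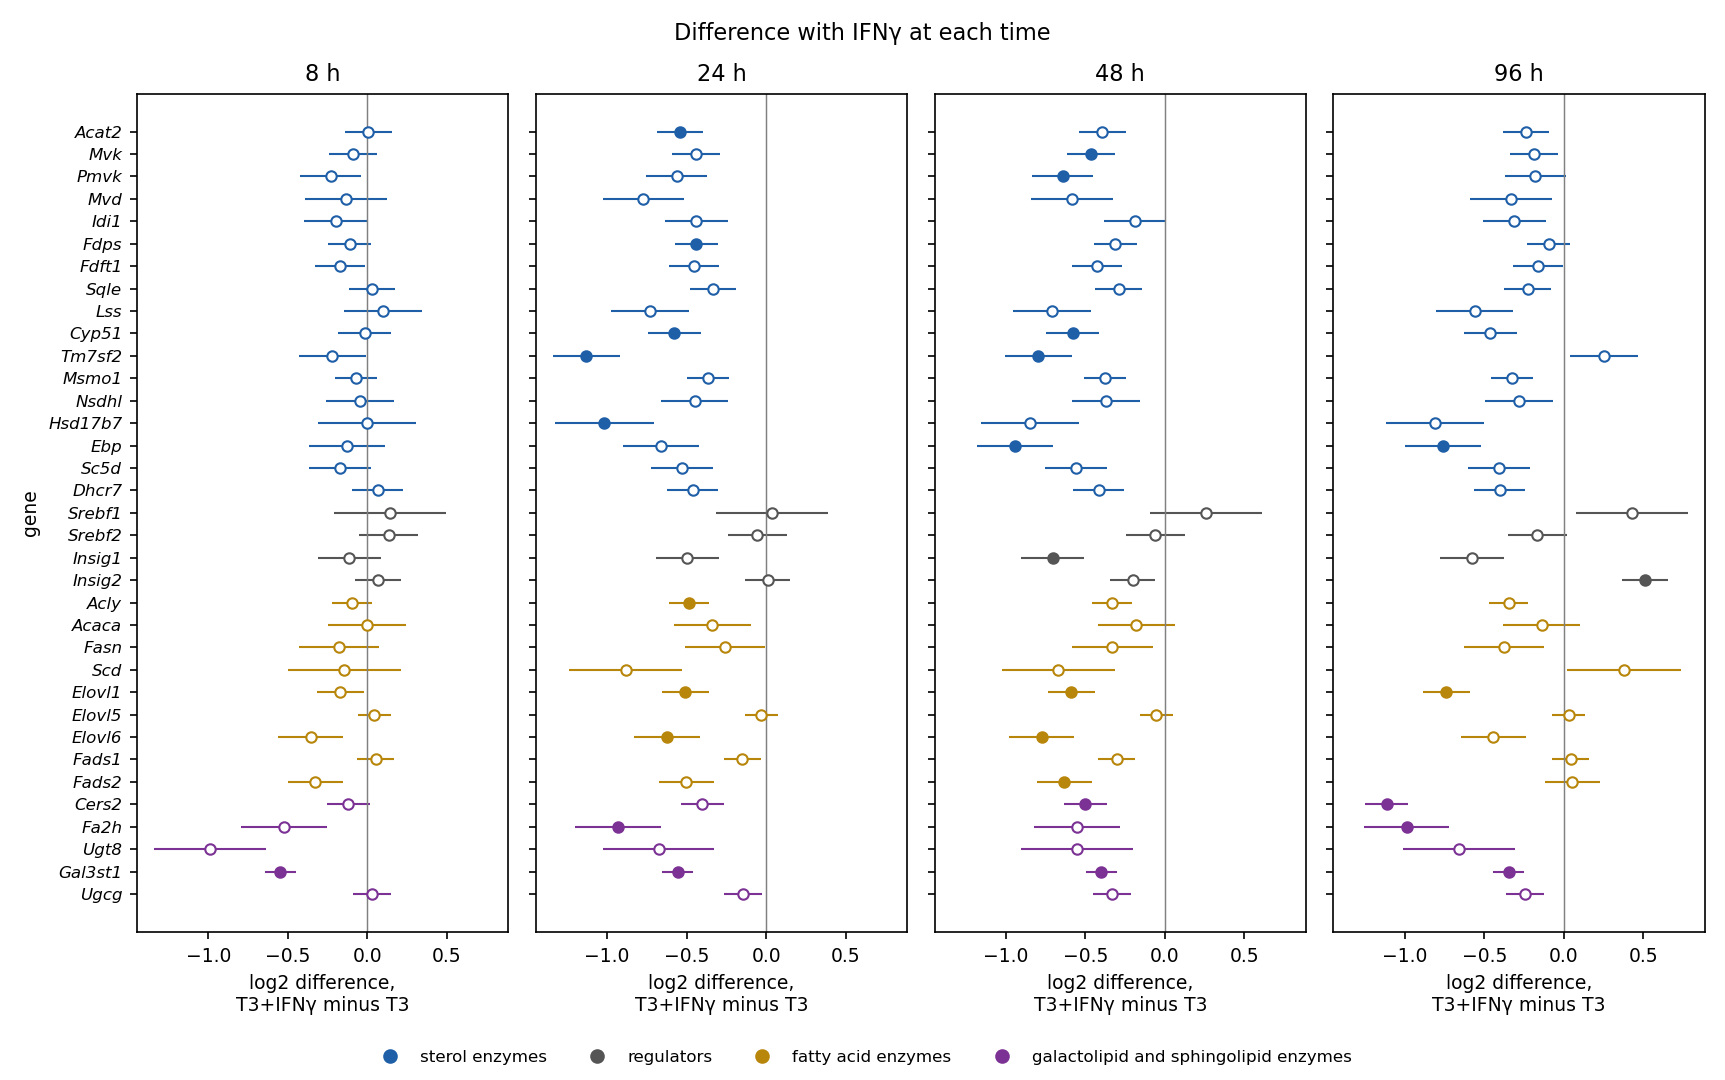
Log2 difference between T3+IFNγ and T3 (horizontal axis) for each of the 35 genes (rows) at 8, 24, 48 and 96 h, with bars of 1 SE from limma. Filled points have an adjusted p under 0.05 and colours mark the classes. At 24 and 48 h every enzyme lies left of 0, with medians over the 35 genes of -0.49 and -0.43, whereas Insig2 at 96 h is the only filled point to the right.

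Among the 17 sterol enzymes, the numbers called lower with IFNγ were 5, 5 and 1 at 24, 48 and 96 h. The shares of all genes called lower were 6.35%, 8.53% and 5.63%, so the count at 96 h was close to that of all genes. With donors as blocks, 13, 8 and 1 of the 17 were called in either direction, all of them lower. The shares of all genes called in either direction were then 17.8%, 22.3% and 18.9%. All 17 were lower in 3 of 3 donors at 24 h and 16 of 17 were at 48 h, a share that was not counted over all genes. The median was -0.53 at 24 h and -0.47 at 48 h. Tm7sf2 showed the largest difference at 24 h. Its signals in T3+IFNγ were 8.83, 8.74 and 8.98, below all 3 arrays of T3 (10.49, 9.72 and 9.73) and next to those of PDGF (8.99, 8.96 and 9.08), a difference of -1.13 ± 0.21 (adjusted p = 0.000648). At 48 h the difference was -0.80 ± 0.21 (adjusted p = 0.0109). By 96 h the order had turned, with 10.12, 10.48 and 10.17 in T3+IFNγ and 10.08, 9.98 and 9.96 in T3, a difference of 0.25 ± 0.21 that was not called (adjusted p = 0.509).

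The means of the other 16 sterol enzymes stayed below T3 at 96 h, but the donors differed. At that time 10 of the 17 were lower in 3 of 3 donors, also not counted over all genes. The class mean was -0.54, -0.11 and -0.31 in donors 1, 2 and 3. Hsd17b7, a sterol ketoreductase, had signals of 10.51, 9.49 and 9.40 in T3 at 24 h and 9.16, 8.86 and 8.34 in T3+IFNγ, groups that did not overlap, and a difference of -1.02 ± 0.31 (adjusted p = 0.0323). At 48 and 96 h it was -0.85 and -0.81, not called (adjusted p = 0.0663 and 0.0911). Ebp gave 8.97, 8.38 and 8.47 in T3 at 48 h and 8.36, 7.01 and 7.62 in T3+IFNγ, all 3 of the latter below all 3 of the former, a difference of -0.94 ± 0.24 (adjusted p = 0.00806). It was also the sterol enzyme called at 96 h, with -0.76 ± 0.24 (adjusted p = 0.0368). That call was not kept in both the fit without donor 2 and the fit without donor 3. Pmvk was -0.64 ± 0.19 at 48 h (adjusted p = 0.0229). Without donor 2 or donor 3, the calls of Hsd17b7 at 24 h (adjusted p = 0.162 and 0.236), Ebp at 48 h (0.141 and 0.13) and Pmvk at 48 h (0.156 and 0.252) were lost, and that of Hsd17b7 was also lost without the 2 donor 2 arrays (0.064). The remaining calls were Acat2, Fdps and Cyp51 at 24 h, between -0.58 and -0.44, and Mvk and Cyp51 at 48 h, at -0.47 and -0.58. These too were lost without donor 2 or donor 3. Sc5d was -0.56 at 48 h (adjusted p = 0.0541), and its dimmer probe sets gave -1.18 and -0.85.

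The regulators parted from each other. Insig1 moved with the enzymes, with 12.56, 12.12 and 12.20 in T3 at 48 h and 11.80, 11.43 and 11.55 in T3+IFNγ, a difference of -0.70 ± 0.20 (adjusted p = 0.0163, and 0.193 and 0.139 without donors 2 and 3). Insig2 went the other way at the end. It had signals of 8.48, 8.27 and 8.31 in T3 at 96 h and 8.94, 8.84 and 8.81 in T3+IFNγ, with no overlap and a difference of 0.51 ± 0.14 (adjusted p = 0.0176, and 0.178 and 0.163 without donors 2 and 3). A second Insig2 probe set gave 0.47. Srebf1 was 0.43 ± 0.35 higher at 96 h in all 3 donors, with an adjusted p of 0.503, or 0.0479 with donors as blocks. Srebf2 was not called at any time and lay between -0.17 and 0.14.

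Fatty acid enzymes were lowered in part. The numbers called lower with IFNγ were 3, 3 and 1 of 9 at 24, 48 and 96 h, against 6.35%, 8.53% and 5.63% of all genes. Elovl1 was called at all 3 of these times, at -0.51, -0.59 and -0.74, but its calls at 24 and 48 h were lost without donor 2 or donor 3. Its signals at 96 h were 12.07, 11.79 and 11.99 in T3 and 11.02, 11.32 and 11.28 in T3+IFNγ, without overlap (SE 0.15, adjusted p = 0.0011, and 0.0554 without donor 3). Elovl6 was -0.62 at 24 h (adjusted p = 0.0495) and -0.78 ± 0.20 at 48 h (adjusted p = 0.0106), where a second probe set gave -0.89. Fads2 was -0.63 ± 0.17 at 48 h (adjusted p = 0.0135) and 0.05 at 96 h. Acly was -0.49 ± 0.12 at 24 h (adjusted p = 0.0107). Without donor 2 or donor 3 the calls of Elovl6 at 48 h (adjusted p = 0.147 and 0.0815), Fads2 at 48 h (0.209 and 0.181) and Acly at 24 h (0.0639 and 0.139) were lost. Scd varied between donors, with 10.80, 11.11 and 10.86 in T3 and 9.35, 10.61 and 10.17 in T3+IFNγ at 24 h, and its difference of -0.88 ± 0.36 was not called (adjusted p = 0.119). At 96 h it had 10.09, 9.68 and 9.75 in T3 and 9.42, 10.66 and 10.59 in T3+IFNγ, also not called. Elovl5 and Fads1 lay between -0.30 and 0.05 at all 4 times, with no call, whereas a dimmer probe set of Elovl5 gave -0.24, -0.35, -0.36 and 0.02.

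Among the galactolipid and sphingolipid enzymes the difference grew with time for Cers2. At 96 h its signals were 10.94, 10.93 and 11.11 in T3 and 9.69, 9.998 and 9.95 in T3+IFNγ, a gap wider than the spread of either group. The difference was -1.11 ± 0.14 (adjusted p = 2.28e-06), after -0.12 at 8 h, -0.40 at 24 h and -0.50 at 48 h. Fa2h gave 9.68, 9.44 and 9.33 in T3 and 8.41, 8.51 and 8.57 in T3+IFNγ at 96 h, a difference of -0.99 ± 0.27 (adjusted p = 0.0145, and 0.163 without donor 2), and -0.93 at 24 h (adjusted p = 0.0238). Gal3st1 was the only one of the 35 called lower with IFNγ at all 4 times. Its signals at 8 h were 8.94, 8.996 and 8.80 in T3 and 8.32, 8.44 and 8.33 in T3+IFNγ, without overlap. The differences were -0.55, -0.56, -0.40 and -0.35 at 8, 24, 48 and 96 h, each ± 0.10, and the adjusted p was 0.000573 at 8 h and 0.0185 at 96 h.

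Ugt8 was lower with IFNγ in 3 of 3 donors at every time without passing the test. At 8 h it had signals of 10.09, 8.98 and 8.93 in T3 and 9.28, 7.51 and 8.23 in T3+IFNγ, groups that overlap, with donor 1 highest in both. The difference of -0.99 ± 0.35 had an adjusted p of 0.129, or 0.0228 with donors as blocks. At 24, 48 and 96 h the differences were -0.68, -0.55 and -0.66. Ugcg was -0.33 at 48 h (adjusted p = 0.0621) and was not called at any time.

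Whether the effect of IFNγ itself changed with time was tested as an interaction. Against 8 h, 1 of the 35 differed at 96 h: for Cers2 the effect at 96 h minus that at 8 h was -0.99 ± 0.19 (adjusted p = 0.00285), while 2.08% of all genes were called in that direction. Against 24 h, chosen after the values were seen, Cers2 was again called lower (-0.71, adjusted p = 0.0486), the only such gene of the 35, against 1.55% of all genes. Tm7sf2 was the only gene called in the other direction, against 1.03%: its effect was higher at 96 h by 1.38 ± 0.30 (adjusted p = 0.00994), and the 3 donors gave 1.71, 1.49 and 0.96. Without donor 2 and without donor 3 these adjusted p-values were 0.149 and 0.0834 for Cers2 against 8 h, 0.466 and 0.407 against 24 h, and 0.194 and 0.174 for Tm7sf2. Without the 2 donor 2 arrays that of Cers2 against 24 h was 0.0963. Against 48 h the interaction was 1.05 for Tm7sf2 (adjusted p = 0.0615, or 0.0418 with donors as blocks) and 0.71 for Insig2 (0.0592, or 0.00363 with blocks).

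Neighbouring pathways were read from further lists. Of 6 other genes of sterol synthesis and uptake, 3 were called higher in T3 than in PDGF at 48 h (Lpin1, Npc2 and Mbtps2), against 17.5% of all genes. With IFNγ 1 was higher and 1 lower than in T3 at 24 h, against 5.96% and 6.35%. These were Lpin1, a phosphatidate phosphatase (0.53, adjusted p = 0.0323), and Stard4, a sterol carrier (-0.69, adjusted p = 0.0111). Both calls were lost without donor 2 (adjusted p = 0.293 and 0.11) or donor 3 (0.107 and 0.101), and that of Lpin1 without the 2 donor 2 arrays (0.185).

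Of 11 oxysterol, efflux and storage genes, 1, 3, 3 and 4 were called higher with IFNγ than with T3 alone at 8, 24, 48 and 96 h, against 3.69%, 5.96%, 7.58% and 7.91% of all genes. The median of the 11 was -0.029, 0.39, 0.58 and 0.53. Soat1, which esterifies cholesterol for storage, was higher by 1.14 ± 0.23 at 24 h (adjusted p = 0.00156, and 0.0616 without donor 2) and by 1.29 at 96 h (adjusted p = 0.000368). Abcg1, a sterol exporter, was higher by 1.52 ± 0.49 at 48 h (adjusted p = 0.0364, and 0.246 and 0.165 without donors 2 and 3). With the mean of its probe sets that difference was 0.64 (adjusted p = 0.0296). Nr1h2, the oxysterol receptor LXR-beta, was called higher at all 4 times, but at 8 h not with the mean of its probe sets (0.33, adjusted p = 0.0748). Cyp27a1, the sterol 27-hydroxylase, was called higher at 24, 48 and 96 h, and reached 1.26 ± 0.13 at 96 h (adjusted p = 1.28e-07). Of the calls of these genes, only those of Nr1h2 at 24 h and of Soat1 and Cyp27a1 at 96 h held without each donor in turn.

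The fourth gene called higher at 96 h was Mylip, which degrades the LDL receptor, with 0.46, 0.58 and 1.93 in the 3 donors (0.52 and adjusted p = 0.264 without donor 3). Cyp46a1, which turns cholesterol into 24-hydroxycholesterol, was called lower, with -0.78, -0.29 and -0.14 (-0.22 and adjusted p = 0.447 without donor 1). With donors as blocks, 4, 5 and 6 of the 11 were called higher at 24, 48 and 96 h, against 8.05%, 10.3% and 11.0% of all genes. The added calls were Abcg1 at 24 and 96 h, Ch25h, the cholesterol 25-hydroxylase, at 48 and 96 h (1.11 and 1.62), and Apoe at 48 h. Abca1, the other main exporter, gave -0.12 at 96 h (adjusted p = 0.945). Mbtps2, Nr1h2, Cyp27a1, Cyp46a1, Mylip and Apoe were named after their values were seen. Microglia and macrophage markers were also higher in T3+IFNγ, as given above, and their part in these values was not tested.

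Of 15 other fatty acid genes, 11 were called higher in T3 than in PDGF at 48 h, against 17.5% of all genes. With IFNγ 4 were lower than in T3 at that time (Acsl1, Aspa, Acss2 and Slc25a1, against 8.53%) and 1 higher (Fabp5, against 7.58%), the last 3 named after their values were seen. The calls of Acss2, Slc25a1 and Fabp5 were lost without donor 2 or donor 3. Acsl1, which activates long-chain fatty acids, was lower at all 4 times, with -1.34 ± 0.13 at 24 h (adjusted p = 3.86e-08) and donors at -1.38, -1.29 and -1.34. Aspa, which frees acetate from N-acetylaspartate, was -1.60 ± 0.29 at 48 h (adjusted p = 0.000328), and its donors at 96 h gave -0.57, 0.14 and -0.01.

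Of 12 other sphingolipid genes, 9 were called higher in T3 than in PDGF at 96 h, against 23.4% of all genes, among them the lysosomal enzymes Arsa (1.44) and Smpd1 (1.40). The 2 called lower, against 29.5%, were the ceramide synthases Cers4 (-0.61) and Cers6 (-0.91). With IFNγ, 3 were lower than in T3 and 2 higher at 96 h, against 5.63% and 7.91%. The lower genes were Galc, which breaks down galactosylceramide (-1.01, adjusted p = 0.000112), Degs1, which makes ceramide (-0.52, adjusted p = 0.0172), and Arsa, which removes the sulfate of sulfatide (-0.43, adjusted p = 0.0129). Only the first of these held without each donor in turn. With the mean of its probe sets, Degs1 gave -0.11 (adjusted p = 0.579). The higher genes were Asah1 (acid ceramidase, 0.40, adjusted p = 0.121 without donor 2 and 0.235 without donor 3) and Cers6, with 1.88, 0.48 and 0.69 in the 3 donors (adjusted p = 0.0181, and 0.58 with adjusted p = 0.17 without donor 1). At 8 h Asah1 was higher by 1.01 ± 0.11 (adjusted p = 4.87e-07), and at 48 h Smpd1 was -0.66 (adjusted p = 0.00115, and 0.0628 without donor 2). Cers4, Galc and Degs1 were named after their values were seen.

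Of 4 plasmalogen genes, 1, 3, 2 and 2 were called lower with IFNγ at 8, 24, 48 and 96 h, against 1.58%, 6.35%, 8.53% and 5.63% of all genes. These were Pex7 at all 4 times (named after its values were seen), Gnpat from 24 h on and Far1 at 24 h. Of these calls, those of Pex7 at 24 h and Gnpat at 96 h held without each donor in turn. Gnpat, the acyltransferase that starts ether lipid synthesis, went from -0.43 at 24 h to -0.71 ± 0.11 at 96 h (adjusted p = 3.72e-05). Far1, which supplies fatty alcohols, was -0.81 at 24 h (adjusted p = 0.00285, and 0.064 without donor 3).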

How the data were processed

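RNA from OPCs of 3 rat donors was hybridised to Affymetrix rat arrays. Per the labels, the authors processed the scans with RMA, and the deposited table holds log2 signals for 31099 probe sets on 27 arrays (medians 5.95 to 6.028). Versions, background settings and the genome build are not given in the sources used here. Probe sets were named through the platform annotation: 20826 had a single gene symbol, 436 several and 9831 none, and 20758 were matched to current Entrez records. After removal of control probe sets the brightest probe set stood for each of 14217 genes. limma 3.58.1 (R 4.3.3) was fitted to all 27 arrays with 1 mean for each of 9 groups, eBayes and Benjamini-Hochberg adjustment within a comparison, and was tested on simulated data first. The labels name the donor of each array, so replicate numbers pair arrays. Deviations from group means correlated at a median of 0.31 within and -0.171 between donors, and 27 of 27 arrays were closest to arrays of their own donor. The fit without donor was the main one, and donor as a block an alternative, as were the mean of probe sets, median centring, a filter on dim genes, and leaving out each donor or the 2 T3+IFNγ arrays of donor 2 at 8 and 24 h. No 2 arrays were duplicates (highest correlation 0.9967). Array number limits the precision.

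Named genes were those with the largest called differences in each class and list, and all regulators. The members, lists and tests were chosen with earlier results of these data known, and the interactions with 24 and 48 h after values were seen. Promoters came from RefSeq (GRCr8). Tables and plots were made in Python 3.11.15 (matplotlib 3.10.9, NumPy 2.4.6, pandas 2.3.3).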

Additional observations from a re-analysis of the deposited data

Results flagged for a closer look

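The effect of IFNγ differed between times for 2 genes, by the interaction test in limma. For Cers2 it was more negative at 96 h than at 8 h (-0.99 on the log2 scale, adjusted p = 0.00285) and than at 24 h (-0.71, adjusted p = 0.0486), in 3 of 3 donors each. For Tm7sf2 it was higher at 96 h than at 24 h (1.38, adjusted p = 0.00994), in 3 of 3 donors. None of the 3 passed without donor 2 or without donor 3.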

How the results depend on the processing

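Calls depended on which donor was left out. Counts of the 35 genes are given below where they moved by over 1.5 times. Leaving out each donor in turn gave these ranges. For T3 above PDGF the count was 1 to 15 at 8 h, and below PDGF 0 to 1 at 96 h. For T3+IFNγ above PDGF it was 0 to 10 at 8 h, 5 to 14 at 24 h and 7 to 18 at 96 h, and below PDGF 1 to 3 at 24 h and 0 to 3 at 96 h. For T3+IFNγ below T3 it was 1 to 2, 2 to 13, 0 to 22 and 2 to 6 at 8, 24, 48 and 96 h, and above T3 0 to 2 at 96 h. For the T3 steps it was 6 to 10 (8 to 24 h, higher), 4 to 22 (24 to 48 h, higher) and 10 to 23 (48 to 96 h, lower). For the interactions it was 0 to 1 (96 against 8 h, lower), 0 to 2 (96 against 24 h, higher) and 0 to 1 (96 against 24 h, lower).

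With the replicate block for donor, the count was 9 for T3 above PDGF at 8 h, 1 for T3 below PDGF at 8 h and at 96 h, 2 for T3+IFNγ below PDGF at 24 h, 2 and 19 for T3+IFNγ below T3 at 8 and 24 h, 2 for T3+IFNγ above T3 at 96 h and 2 for the interaction of 96 with 24 h, higher. Of 36 named values the block moved 2 past the threshold, Srebf1 and Insig1 at 96 h, and changed no other call. The dim filter gave 7 for T3 above PDGF at 8 h. The mean of probe sets gave 1 for T3 below PDGF at 96 h. Without the 2 donor 2 arrays the counts were 1 for T3 below PDGF at 96 h, 3 for T3+IFNγ above and 2 below PDGF at 8 and 24 h, 6 for T3+IFNγ below T3 at 24 h and 0 for the interaction of 96 with 24 h, lower. Without donor 2, and without donor 3, 12 of the 36 named values lost their call.

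Among the 36 named values the direction turned only for regulators near 0, in T3+IFNγ against T3. Over the fits that left out a donor, Srebf1 ran from -0.012 to 0.261 at 8 h and from -0.123 to 0.116 at 24 h, Srebf2 from -0.023 to 0.252 at 8 h and from -0.16 to 0.056 at 48 h, and Insig2 from -0.094 to 0.177 at 24 h (-0.055 without donor 3). Without the 2 donor 2 arrays Srebf1 was -0.082 and -0.303 at 8 and 24 h and Srebf2 -0.092 at 8 h. With the mean of probe sets Srebf1 was -0.032 at 24 h and Srebf2 0.042 at 48 h, and with median centring Insig2 was -0.005 at 24 h. The cause was not tested.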
